A study of Mus musculus with 10 samples.

Results

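The latent TGFβ binding proteins (LTBPs), fibrillin-1 and the fibulins were examined in reactive cholangiocytes, the biliary epithelial cells that expand after liver injury. The 10 genes, *Ltbp1*, *Ltbp2*, *Ltbp3*, *Ltbp4*, *Fbn1*, *Fbln1*, *Fbln2*, *Fbln5*, *Efemp1* and *Efemp2*, were taken by symbol from the 49568 genes of the deposited table, and all 10 were measured above the filter on low values. RNA came from 5 *Ctl* and 5 *Smad4del* mice of mixed background, 1 sample per mouse, and all 10 mice had eaten a diet with 0.1% DDC, a compound that injures bile ducts, for 2 weeks. The labels give the genotypes as Smad4wt/wt for *Ctl* and Smad4fl/fl for *Smad4del*. By the study's methods, *Smad4del* mice carried *Alb-Cre* and *Ctl* mice did not, so that an effect of Cre itself cannot be told apart from that of the deletion. *Alb-Cre* deletes floxed alleles in hepatocytes and cholangiocytes, not in fibroblasts or endothelial cells. By the methods, controls were littermates where possible, but the sources used here do not give the age, sex, litter or batch of each mouse. Live cells positive for EPCAM and negative for CD45 and TER119 were sorted from digested livers.

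TGFβ is secreted bound to its own propeptide, and most of this latent complex is joined to an LTBP, which anchors it in the extracellular matrix. Fibrillin-1 polymerises into microfibrils, to which LTBPs attach, and the fibulins are shorter glycoproteins that link microfibrils to elastin and to basement membranes. Integrins and proteases then release active TGFβ, which signals through SMAD2, SMAD3 and their common partner SMAD4. In the liver these matrix genes are best known from portal fibroblasts, stellate cells and mesothelium, but epithelial cells transcribe several of them as well.

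The values are normalized counts, that is, reads per gene divided by 1 size factor per mouse. Libraries held 16249719 to 21277339 reads on genes, and a member was covered by 80 to 8953 reads in a mouse. *Smad4* itself had a mean of 3389 ± 347 in *Ctl* mice and 877 ± 144 in *Smad4del* mice (SD, n = 5 each), and each of the *Smad4del* mice lay below each of the *Ctl* mice. The 20 cholangiocyte markers had a mean log2 level of 12.56 to 12.99 in *Ctl* and 12.70 to 13.03 in *Smad4del* mice. Of these, 3 were called higher (*Krt19*, *Muc1* and *Onecut1*) and 2 lower (*Sctr* and *Aqp1*), and 15 of 20 had a log2 fold change above 0.

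Of the 10 members, 6 were lower in *Smad4del* mice (*Ltbp1*, *Ltbp2*, *Ltbp4*, *Fbn1*, *Fbln2* and *Fbln5*), 0 were higher and 4 were not called (limma on log2(normalized count + 1), Benjamini-Hochberg adjusted P-value under 0.05 over 14870 genes). Across all tested genes, 4.69% were called lower and 2.43% higher, 7.12% in either direction, a split of 697 and 362 genes that became 639 and 626 under median scaling and 607 and 579 under quantile normalization. At an unadjusted P-value under 0.05, which 15.1% of all genes passed as lower and 12.3% as higher, 8 members were lower and 0 higher, and edgeR and DESeq2 called 0 higher. In 4 members, *Ltbp1*, *Ltbp2*, *Fbln2* and *Fbln5*, every *Smad4del* mouse lay below every *Ctl* mouse, a pattern met by 4.59% of all genes tested. The opposite pattern, met by 3.5% of all genes, was seen in 0 members. The median log2 fold change was -1.32 for the members and -0.0050 for all genes tested. In bulk RNA of this kind, fewer cells that express a gene and less RNA of it per cell cannot be told apart.

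**Figure D1:**
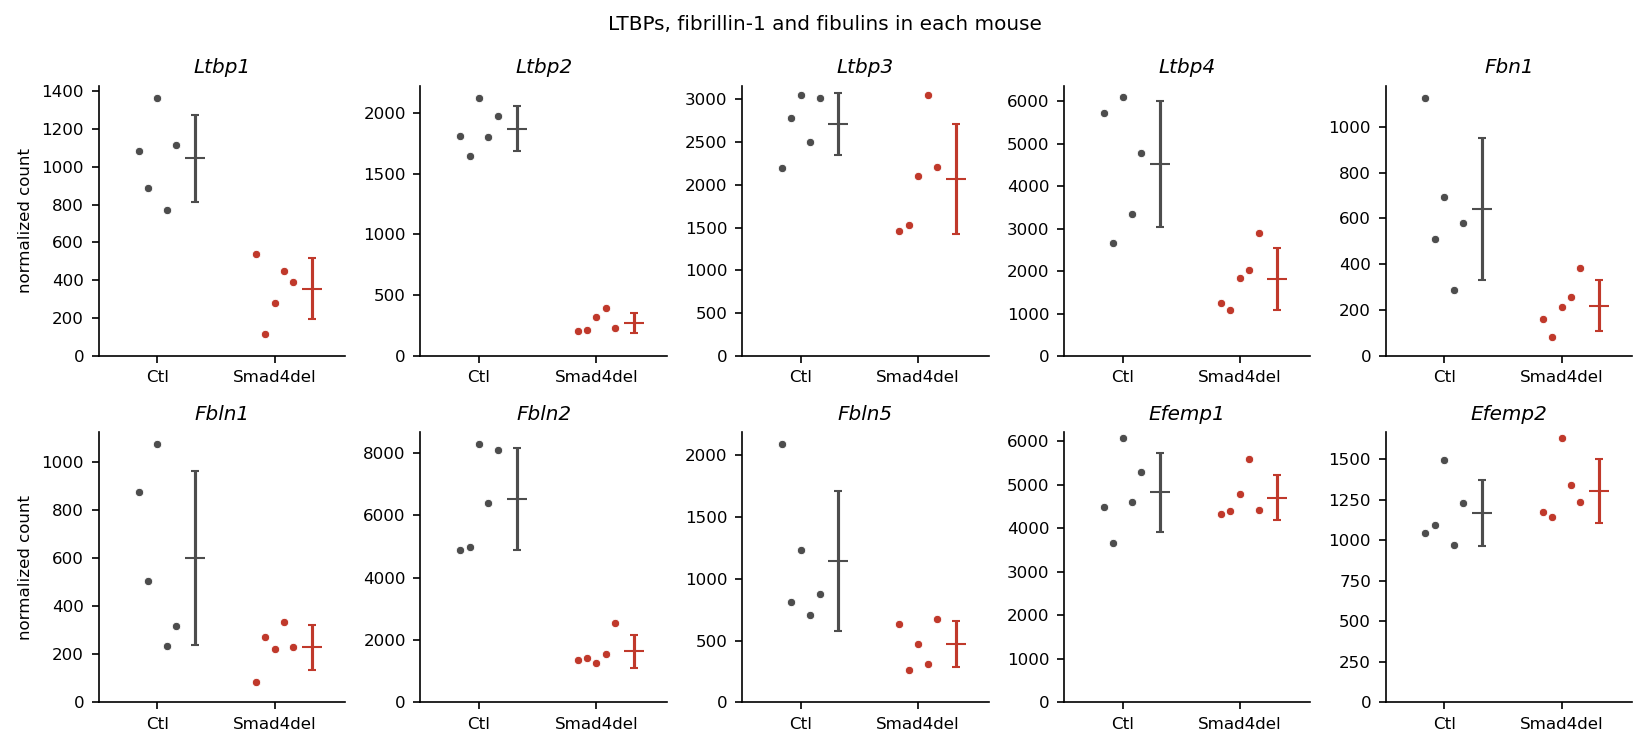
Normalized count of each gene (vertical axes, from 0) in 5 *Ctl* mice (grey points) and 5 *Smad4del* mice (red points), with the mean and SD beside the points. The cohorts stand clear of each other for *Ltbp1*, *Ltbp2*, *Fbln2* and *Fbln5*. The red points lie inside the grey range for *Efemp1* and overlap with it for *Efemp2*.

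*Ltbp2* (chr12:84783212-84876532, minus strand; coordinates of genes follow GENCODE M21, build GRCm38) showed the largest difference of the 10. It encodes the LTBP that binds fibrillin-1 and fibulin-5 but not the latent TGFβ complex. Its normalized counts were 1807, 1643, 2125, 1801 and 1977 in *Ctl* mice A5215, A5219, A5221, A5626 and A5628, the order kept throughout. They were 206, 217, 316, 391 and 227 in *Smad4del* mice A5216, A5217, A5218, A5447 and A5624. The *Ctl* mice kept to a narrow range, and the highest *Smad4del* mouse stayed far below the lowest *Ctl* mouse. The log2 fold change was -2.82 (SE 0.18, 95% confidence interval -3.20 to -2.44, limma adjusted P-value 1.09e-05), so that the mean *Smad4del* count was 14.5% of the *Ctl* mean. By P-value *Ltbp2* ranked 2 among the 14870 genes.

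*Ltbp1* (chr17:75005568-75392512, plus strand) encodes the best known carrier of latent TGFβ1. Its counts were 1086, 888, 1365, 770.0 and 1113 in *Ctl* mice and 537, 118, 282, 450.4 and 393 in *Smad4del* mice. The cohorts did not overlap, and mouse A5217 was the lowest of all. This amounted to a log2 fold change of -1.69 (SE 0.35, limma adjusted P-value 0.0168), a 3.23-fold lower level in *Smad4del* mice.

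*Ltbp4* (chr7:27305136-27337692, minus strand), which carries latent TGFβ1 and takes part in elastic fibre assembly, spread more widely. Its counts were 5724, 2669, 6113, 3349 and 4795 in *Ctl* mice and 1244, 1072, 1829, 2030.2 and 2907 in *Smad4del* mice. A single *Smad4del* mouse, A5624, exceeded the lowest *Ctl* mouse, A5219. *Ltbp4* fell by 1.34 on the log2 scale (SE 0.29, limma adjusted P-value 0.0204). That adjusted value was 0.0535 without *Smad4del* mouse A5217, and the call was also lost without *Ctl* mouse A5221.

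*Ltbp3* (chr19:5740904-5758532, plus strand), the other carrier of latent TGFβ, was not called. Its counts were 2195, 2788, 3051, 2503 and 3022 in *Ctl* mice and 1463, 1530.4, 2100.4, 3051 and 2209.9 in *Smad4del* mice. *Smad4del* mouse A5447 matched the highest *Ctl* mouse, and 2 of the 5 *Smad4del* mice, A5447 and A5624, exceeded the lowest *Ctl* mouse. The log2 fold change was -0.43 with a 95% confidence interval of -0.83 to -0.03 (limma adjusted P-value 0.158). Without A5447 the adjusted value was 0.0383.

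The LTBP genes therefore did not shift in proportion, which was examined as shares of their summed level per kilobase of exons. The *Ltbp2* share was 17.6 ± 2.39% in *Ctl* and 5.95 ± 1.36% in *Smad4del* mice (SD, n = 5 each), and the ranges of 15.2 to 20.3% and 3.65 to 7.11% did not meet. The *Ltbp3* share was 23.3 ± 5.28% and 40.1 ± 5.60%, with every *Smad4del* mouse above every *Ctl* mouse. *Ltbp4* held 51.8 ± 7.75% and 48.0 ± 6.75%, and had the largest share in 8 of the 10 mice, with *Ltbp3* ahead in A5217 and A5447. A share moves when any other member moves, so these values describe the make-up of the family and not a change of *Ltbp3*. The summed LTBP level was 1326 ± 275 normalized counts per kilobase in *Ctl* and 576 ± 176 in *Smad4del* mice, without overlap.

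**Figure D2:**
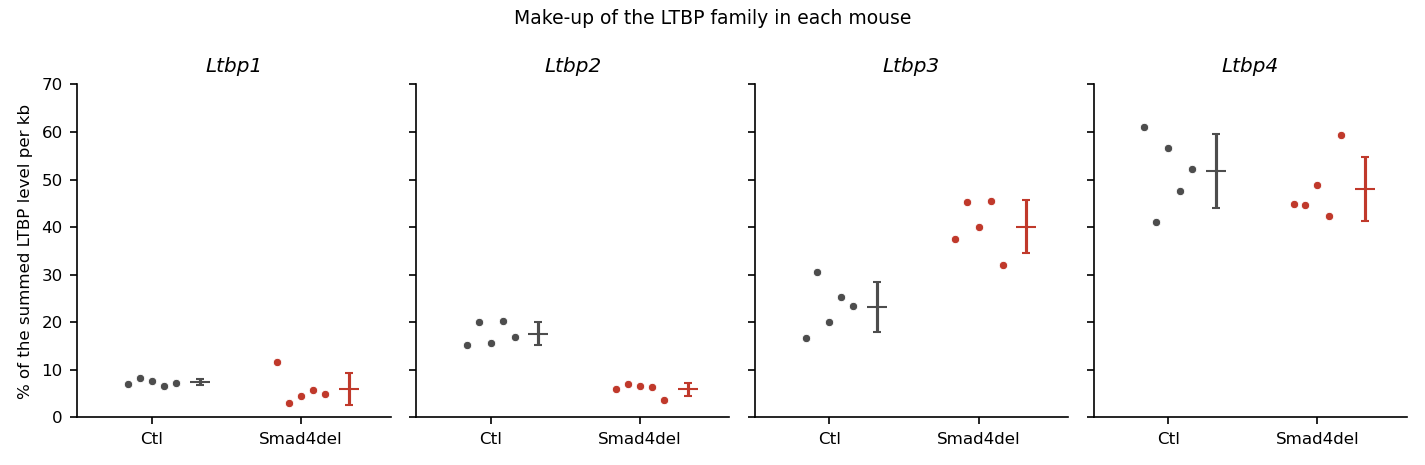
Share of each LTBP gene in the summed LTBP level per kilobase of exons (vertical axis, percent, from 0) in 5 *Ctl* (grey) and 5 *Smad4del* mice (red), with mean and SD beside the points. *Ltbp2* has the lower share and *Ltbp3* the higher share in all *Smad4del* mice, whereas the *Ltbp1* and *Ltbp4* shares overlap.

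The bases before the transcription starts of *Ltbp1* and *Ltbp2* are shown because these are the LTBP genes whose cohorts did not overlap. They come from RefSeq on GRCm38.p6, run 5′ to 3′ on the strand of the gene and end at the last base before the start. Capitals mark the letters CAGAC or their reverse complement GTCTG, which SMAD3 and SMAD4 bind, and GGCGC or GCGCC, a GC-rich form of SMAD element. Neighbouring matches may share letters. RefSeq starts need not match the GENCODE M21 spans printed above, and the *Ltbp2* window reaches into its span. *Ltbp1* has 2 annotated starts, 1 for its long and 1 for its short form, and the deposited counts do not separate them.
Ltbp1, first start (chr17:75005279-75005528, plus strand): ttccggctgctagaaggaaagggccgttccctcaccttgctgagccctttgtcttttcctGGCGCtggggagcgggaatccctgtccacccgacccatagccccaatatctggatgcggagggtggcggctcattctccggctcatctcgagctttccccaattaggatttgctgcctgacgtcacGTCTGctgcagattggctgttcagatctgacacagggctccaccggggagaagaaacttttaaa
Ltbp1, second start (chr17:75178531-75178780, plus strand): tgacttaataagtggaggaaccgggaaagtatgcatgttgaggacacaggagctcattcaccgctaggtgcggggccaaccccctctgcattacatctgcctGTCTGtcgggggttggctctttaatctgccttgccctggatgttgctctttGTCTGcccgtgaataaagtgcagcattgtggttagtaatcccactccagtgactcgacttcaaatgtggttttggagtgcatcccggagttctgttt
Ltbp2 (chr12:84876492-84876741, minus strand): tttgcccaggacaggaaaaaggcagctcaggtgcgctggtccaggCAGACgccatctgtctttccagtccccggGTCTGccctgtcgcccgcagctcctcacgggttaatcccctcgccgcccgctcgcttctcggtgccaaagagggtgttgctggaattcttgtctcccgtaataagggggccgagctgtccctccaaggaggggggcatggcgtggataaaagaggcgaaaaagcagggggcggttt
*Ltbp2* holds CAGAC with its first base at -205 and GTCTG at -176, counted from the start. The second *Ltbp1* window holds GTCTG at -148 and -97, and the first holds GGCGC at -190 and GTCTG at -64. A match of this length is a description of the letters and not evidence of binding.

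Over the 17 RefSeq windows of 250 bases that belong to the 10 members, several of which overlap each other, 8 held CAGAC or GTCTG (47.1%), against 42.2% of 32851 such windows in the genome. GGCGC or GCGCC stood in 10 of the 17 (58.8%), against 32% of all windows. Windows of *Efemp1* and *Efemp2*, which were not called, are among these 10. The windows of the genome were not matched to those of the members for CpG content. The palindromic SMAD element GTCTAGAC was found on 0 member windows and 0.167% of all windows. *Fbn1*, which was called lower, held none of the 3, and each of the other 9 members held at least 1 of them in a window. The share of all genes that hold at least 1 was not computed, so this count has no background.

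*Fbln2* (chr6:91212455-91272540, plus strand) showed the largest difference among the fibulins. Fibulin-2 binds fibrillin-1, elastin precursors and basement membrane proteins. Its counts were 4872, 4986, 8284, 6386 and 8092 in *Ctl* mice and 1368, 1437, 1247, 1558 and 2552 in *Smad4del* mice. Mouse A5624 stood above the other 4 *Smad4del* mice but below every *Ctl* mouse. The log2 fold change was -2.01 (SE 0.21, 95% confidence interval -2.47 to -1.56, limma adjusted P-value 0.000489), a 4.03-fold lower level in *Smad4del* mice. *Fbln2* ranked 18 by P-value among the genes tested.

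*Fbln5* (chr12:101746565-101819055, minus strand) encodes a fibulin needed to assemble elastic fibres, and binds LTBP2 and LTBP4. Its counts were 2090.3, 811, 1232, 704 and 879 in *Ctl* mice and 638, 259.6, 473, 314 and 673 in *Smad4del* mice. The cohorts came close to each other without overlap, and *Ctl* mouse A5215 stood highest. Its log2 fold change was -1.26 (SE 0.33, limma adjusted P-value 0.0431), and 6 of the 10 fits that left out 1 mouse gave no call, with adjusted P-values up to 0.102. edgeR on the recovered reads gave no call either (adjusted P-value 0.0513).

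*Fbln1* (chr15:85205949-85286535, plus strand), a fibulin of basement membranes and elastic fibres, was not called. Its counts were 875, 504, 1072, 234 and 319 in *Ctl* mice and 82.9, 271, 222, 335 and 231 in *Smad4del* mice. *Ctl* mice spread over a wide range that 2 of them shared with the *Smad4del* mice. The log2 fold change was -1.30 with an SE of 0.46 (limma adjusted P-value 0.0980), and DESeq2 alone called this gene lower.

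*Efemp1* and *Efemp2*, which encode fibulin-3 and fibulin-4, did not pass the test. *Efemp1* (chr11:28853204-28926743, plus strand) had counts of 4489.6, 3667, 6082, 4613 and 5299 in *Ctl* mice and 4339.7, 4395, 4793, 5586 and 4417 in *Smad4del* mice. The *Smad4del* mice fell inside the *Ctl* range, with a log2 fold change of -0.02 (95% confidence interval -0.30 to 0.26, limma adjusted P-value 0.928). The sign of so small a difference turned under quantile and median scaling and in other fits.

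*Efemp2* (chr19:5473954-5482517, plus strand), whose product brings lysyl oxidase to elastin, had counts of 1046, 1098, 1494, 972 and 1233 in *Ctl* mice. They were 1177, 1147, 1633, 1345 and 1236 in *Smad4del* mice, and the cohorts overlapped. Its log2 fold change was 0.17 (95% confidence interval -0.13 to 0.46, limma adjusted P-value 0.447). The lower bounds of the *Efemp1* and *Efemp2* intervals lay above the upper bounds of those of *Fbln2* and *Ltbp2*.

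The windows of *Fbln2* and *Efemp1* are shown as those of the fibulin with the largest difference and of the most abundant fibulin, which was not called. Capitals have the meaning given above. The RefSeq start of *Fbln2* lies downstream of the GENCODE M21 start, so its window falls inside the gene span printed above.
Fbln2 (chr6:91212514-91212763, plus strand): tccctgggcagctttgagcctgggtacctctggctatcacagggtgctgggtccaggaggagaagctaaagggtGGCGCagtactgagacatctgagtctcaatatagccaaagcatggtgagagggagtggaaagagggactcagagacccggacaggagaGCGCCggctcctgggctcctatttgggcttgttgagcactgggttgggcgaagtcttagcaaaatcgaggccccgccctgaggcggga
Efemp1 (chr11:28852955-28853204, plus strand): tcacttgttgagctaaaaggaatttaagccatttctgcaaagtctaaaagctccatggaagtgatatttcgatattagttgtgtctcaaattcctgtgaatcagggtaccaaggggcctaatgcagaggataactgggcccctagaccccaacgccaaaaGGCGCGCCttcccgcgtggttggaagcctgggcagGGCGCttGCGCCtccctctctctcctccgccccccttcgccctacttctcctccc
Both windows held GC-rich matches, at -176 and -88 in *Fbln2* and at -90, -87, -55 and -48 in *Efemp1*, and neither held CAGAC or GTCTG.

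*Fbn1* (chr2:125300594-125507993, minus strand) encodes fibrillin-1, the backbone of microfibrils. Its counts were 1126, 510.4, 695, 289.6 and 581 in *Ctl* mice and 159.7, 83.9, 215, 255 and 384 in *Smad4del* mice. Mouse A5624 again exceeded the lowest *Ctl* mouse, here A5626. *Fbn1* fell by 1.57 on the log2 scale (SE 0.41, limma adjusted P-value 0.0417), and 7 of the 10 fits that left out 1 mouse gave no call, with adjusted P-values up to 0.0885. It was not called by edgeR (adjusted P-value 0.0506). Limma gave no call with no minimum mean (adjusted P-value 0.0578) or with *Xist* in the fit (0.0542).

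The exact two-sided permutation test of each member over the 10 mice gave P = 0.00794, the smallest value that 5 mice against 5 allow, for *Ltbp1*, *Ltbp2*, *Fbln2* and *Fbln5*. It gave exact P = 0.0159 for *Ltbp4* and *Fbn1*, 0.0476 for *Fbln1* and 0.103 for *Ltbp3*. For *Efemp1* and *Efemp2* the exact values were 0.865 and 0.270.

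Per kilobase of exons, *Efemp1* was the most abundant member in both cohorts, with 2371 ± 446 normalized counts per kilobase in *Ctl* and 2310 ± 257 in *Smad4del* mice (SD, n = 5 each). It overlapped with no other member in either cohort. *Fbln2* came next in *Ctl* mice at 1024 ± 256 and overlapped with *Ltbp4* at 701 ± 230. *Efemp2* (309 ± 54.2), *Ltbp3* (299 ± 40.1) and *Ltbp2* (229 ± 22.6) followed, each overlapping with the next. At the low end were *Fbln5* (165 ± 81.8), *Fbln1* (138 ± 82.6), *Ltbp1* (97.7 ± 21.4) and *Fbn1* (52.8 ± 25.5), again overlapping in turn.

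In *Smad4del* mice the order differed most for *Ltbp2*, which stood at 33.1 ± 9.75 per kilobase, next to *Ltbp1* at 33.3 ± 15.2 and above only *Fbn1* at 18.1 ± 9.25. *Efemp2* (345 ± 52.004), *Ltbp4* (281 ± 113), *Fbln2* (256 ± 82.6) and *Ltbp3* (228 ± 70.7) formed a group whose neighbours overlapped. *Fbln5* (68.2 ± 26.9) and *Fbln1* (52.3 ± 21.2) lay between. Among the 5 fibulin genes, *Efemp1* made up 59.2 ± 1.39% of the summed level per kilobase in *Ctl* and 76.1 ± 3.00% in *Smad4del* mice, and *Fbln2* 25.4 ± 3.18% and 8.48 ± 2.70%, both without overlap. The summed fibulin level was 4007 ± 765 and 3032 ± 284 normalized counts per kilobase and overlapped between the cohorts. As with the LTBPs, these shares describe the make-up of the family and not a change of *Efemp1*.

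**Figure D3:**
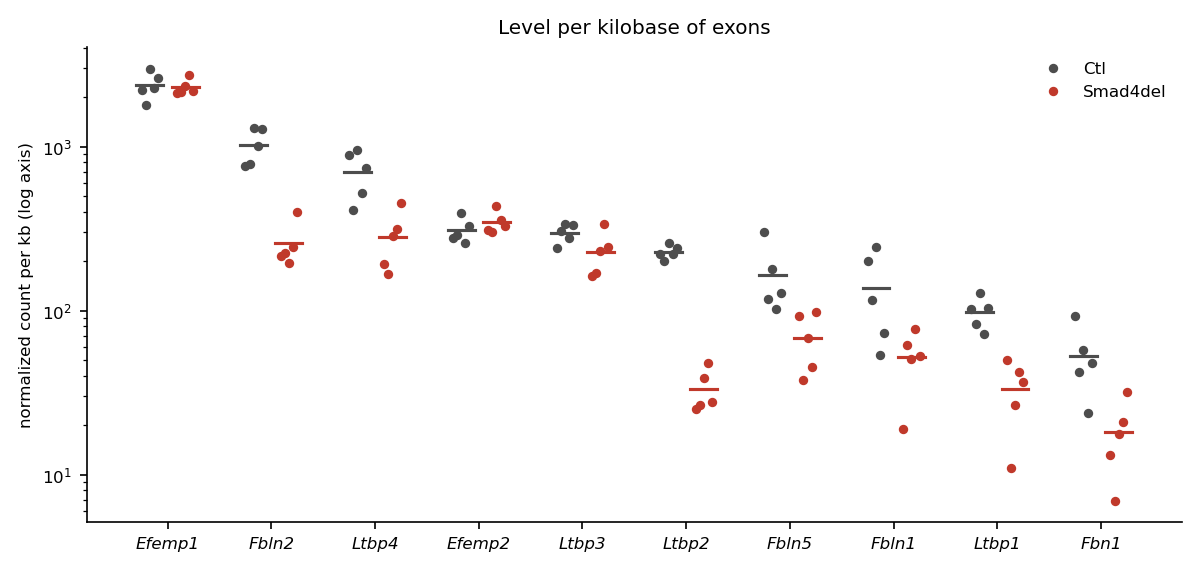
Normalized count per kilobase of exons (log axis) for each gene in *Ctl* (grey) and *Smad4del* mice (red), 1 point per mouse, with the mean as a bar. Genes are ordered by the *Ctl* mean, from *Efemp1* at 2371 to *Fbn1* at 52.8, and *Ltbp2* drops from 229 to 33.1.

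Of the marker lists for other cell types, those of fibroblasts and endothelium separated the cohorts, the fibroblast list only by a narrow gap. The 20 fibroblast and stellate cell markers had summed normalized counts of 33886 to 65324 in *Ctl* and 23134 to 33189 in *Smad4del* mice, without overlap, and 4 of 20 were called lower (*Dcn*, *Acta2*, *Hgf* and *Cygb*) and 0 higher. The 20 endothelial markers summed to 36960.1 to 104224 and 13387 to 26939, with 17 of 20 called lower. Across all genes tested, limma called 4.69% lower, and 15.1% were lower at an unadjusted P-value under 0.05. The 10 mesothelial markers summed to 9663 to 22680.3 and 7419 to 14343, and the 18 macrophage markers to 56401 to 359682 and 44756 to 140492, with 0 called by limma in either list (8 and 16 lower at an unadjusted P-value under 0.05). Of these 4 lists, 18 of 20, 20 of 20, 9 of 10 and 18 of 18 genes had a log2 fold change below 0, and no marker was at 0 in all mice. Hepatocyte markers lay in the other direction, with 8 of 11 log2 fold changes above 0, a median of 0.35 and 0 called (4 higher at an unadjusted P-value under 0.05). Their summed normalized counts overlapped, at 72448 to 101062 in *Ctl* and 75395 to 113227 in *Smad4del* mice.

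**Figure D4:**
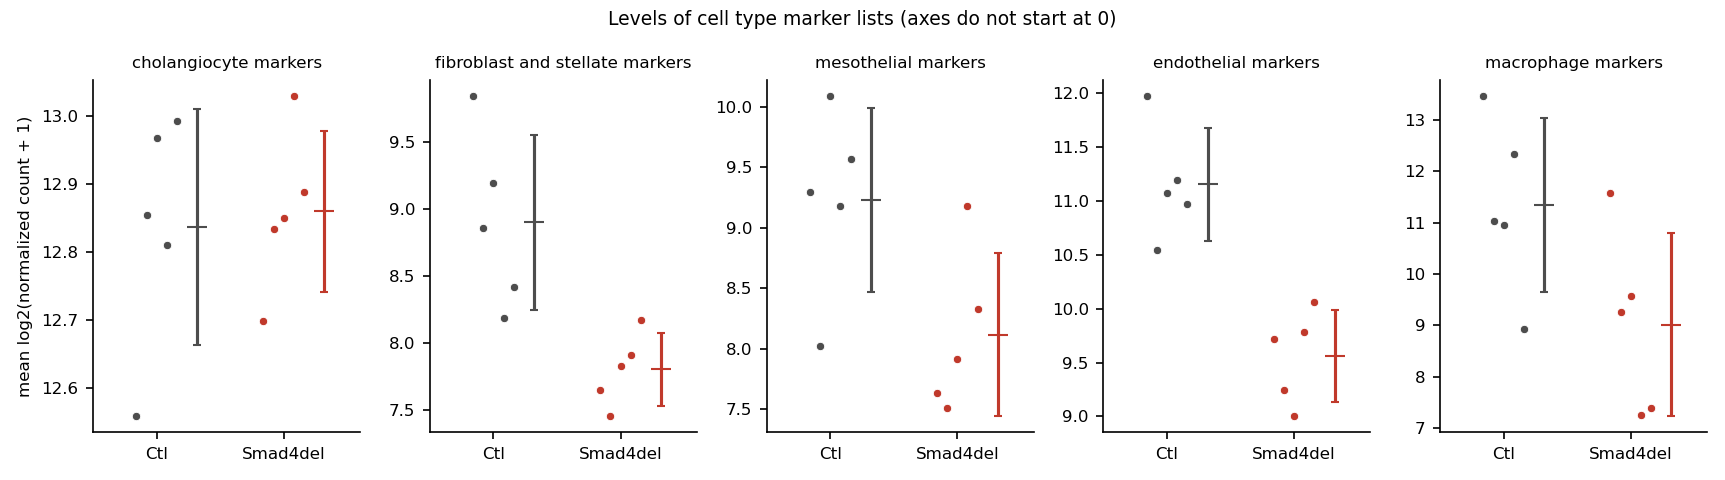
Mean log2(normalized count + 1) over the genes of 5 marker lists in each mouse, *Ctl* in grey and *Smad4del* in red, with mean and SD beside the points and axes that do not start at 0. The cohorts separate for fibroblast and stellate and for endothelial markers and overlap for the other 3 lists. For fibroblast and stellate markers the gap is narrow, with the lowest *Ctl* mouse at 8.19 and the highest *Smad4del* mouse at 8.17. For endothelial markers these are 10.55 and 10.06.

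When the fibroblast and stellate level entered the fit beside the cohort, 1 of the 6 calls was kept, that of *Ltbp2*, with a log2 fold change of -2.74 (limma adjusted P-value 0.00399). *Fbln2* had -2.06 in that fit with an adjusted P-value of 0.0713. The estimates of *Ltbp1* and *Ltbp4* were -1.15 and -0.60. Those of *Fbn1*, *Fbln5* and *Fbln1* were -0.17, -0.21 and -0.0053, each smaller than its SE of 0.40, 0.36 and 0.56. The level differed between the cohorts without overlap, though by a narrow gap, so this fit divides 1 difference over 2 terms. Across all genes it called 14 lower and 1 higher.

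With the endothelial level in the fit, limma called 0 of the 14870 genes in either direction (758 at an unadjusted P-value under 0.05), and *Smad4* itself had an adjusted P-value of 0.0624. *Ltbp2* kept a log2 fold change of -2.87 (adjusted P-value 0.0624) and *Fbln2* one of -1.71 (0.707). *Ltbp1*, *Ltbp4*, *Fbn1* and *Fbln5* had -0.78, -0.29, -0.12 and 0.06. The macrophage level, which overlapped between cohorts, left 5 members called, among them *Ltbp3* at -0.79 (limma adjusted P-value 0.0216). *Fbn1* and *Fbln5* were not called in that fit, which called 2.87% of all genes lower and 1.06% higher.

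**Figure D5:**
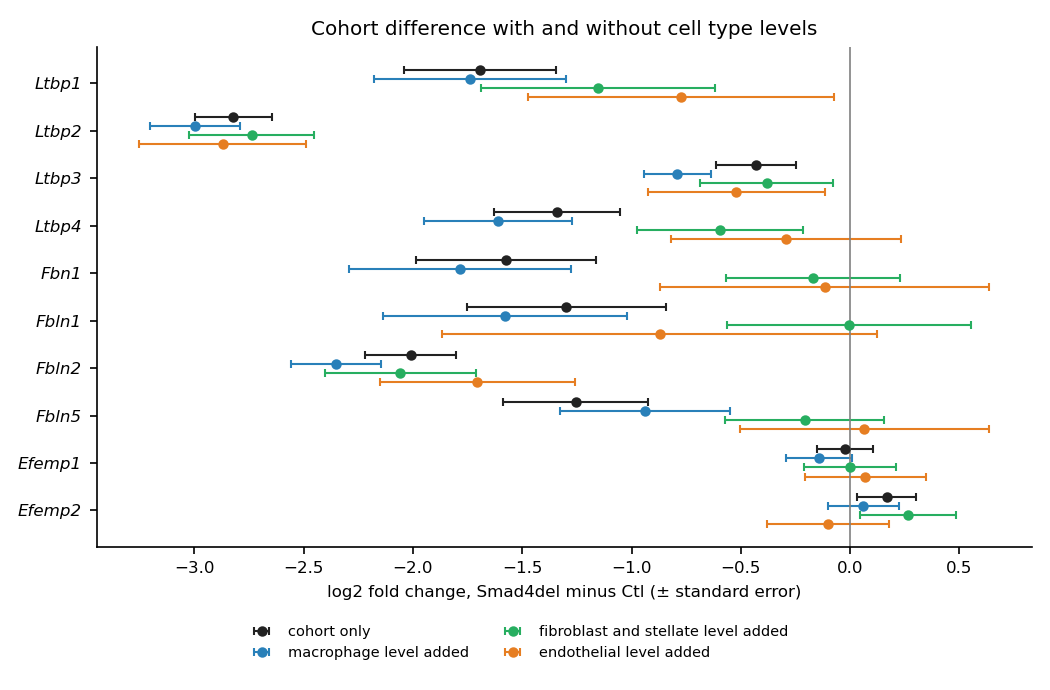
Log2 fold change of each gene (*Smad4del* minus *Ctl*, horizontal axis) with its standard error, from the fit with the cohort alone (black) and with the macrophage (blue), fibroblast and stellate (green) or endothelial level (orange) added. *Ltbp2* and *Fbln2* stay below -1.7 in all 4 fits, and *Fbn1* and *Fbln5* move near 0 in the green and orange fits.

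Within the cohorts, the variation of the members was set beside these levels, and differences between members in these relations were not tested. After the cohort means were subtracted, *Fbn1* varied with the fibroblast and stellate level over the 10 mice (Pearson r = 0.837, exact permutation within cohorts, adjusted P-value 0.0188 over 30 relations). Spearman rho was 0.879 (exact permutation within cohorts, adjusted P-value 0.0167). Without the 2 mice whose marker level lay farthest from its cohort mean, r was 0.739. *Efemp1* varied with the mesothelial level (r = 0.911, exact adjusted P-value 0.0188; rho = 0.867, exact adjusted P-value 0.0563), with r = 0.814 without the 2 farthest mice. The other 28 relations did not pass. The 30 relations cover the fibroblast and stellate, mesothelial and endothelial levels. Values of r with the cholangiocyte, macrophage and hepatocyte levels were computed but not tested, and some were as large. For *Ltbp2*, r was 0.560, -0.439 and -0.879 with these 3 levels. For *Ltbp3*, r was 0.811, -0.795 and -0.817 in the same order. For the fibroblast and stellate level, r was 0.127 for *Ltbp2* and -0.055 for *Fbln2*, and 0.773 for *Fbln5* (exact adjusted P-value 0.0734). For the mesothelial level, r was 0.727 for *Ltbp2* (exact adjusted P-value 0.0734), 0.765 for *Ltbp4* (0.0896) and 0.549 for *Fbln2* (0.284).

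By the same within-cohort deviations over 10 mice, the gene most like *Ltbp2* among 12541 was *Kif5c* (r = 0.948, rho = 0.988), that most like *Fbln2* was *Zak* (r = 0.945, rho = 0.939) and that most like *Ltbp4* was *Sdpr* (r = 0.970, rho = 0.952). Next came *Kif5b* and *Maff* for *Ltbp2*, *Pcsk6* and *Dido1* for *Fbln2*, and *Ddr2* and *Sulf1* for *Ltbp4*. The genes most like *Fbn1* were *Sacm1l*, *Tug1* and *Sepsecs*. With so many genes and 10 mice, values of this size are a description only.

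Partners of these proteins in microfibrils and elastic fibres were listed as well. Of 36 genes, 34 were tested, 4 were called lower and 0 higher by limma (12 and 0 at an unadjusted P-value under 0.05), and the median log2 fold change was -0.77. Across all genes tested, 4.69% were called lower and 2.43% higher. At the unadjusted threshold these shares were 15.1% and 12.3%. *Ecm1*, a binding partner of matrix proteins, fell from 3898 ± 1986 to 1199 ± 179 (log2 fold change -1.58, limma adjusted P-value 0.00663). *Mmrn2*, an EMILIN family member of endothelial matrix, fell from 1286 ± 361 to 442 ± 165 (-1.58, 0.0102), and *Emilin1*, which sits between elastin and microfibrils, from 1901 ± 865 to 809 ± 182 (-1.17, 0.0171). *Nid1*, a linker of basement membranes, fell from 3646 ± 717 to 1884 ± 406 (-0.96, 0.00737). *Eln*, which encodes elastin itself, was at 1583 ± 879 and 683 ± 219 and was not called (adjusted P-value 0.0569).

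Genes that store or activate latent TGFβ numbered 26, of which 25 were tested, 4 were called lower and 0 higher, with a median log2 fold change of -0.31. The shares over all genes tested were 4.69% lower and 2.43% higher, and 15.1% and 12.3% at an unadjusted P-value under 0.05. At an unadjusted P-value under 0.05 limma gave 11 lower and 1 higher, *Plg*, which encodes plasminogen, with a log2 fold change of 0.57 that was not called. *Lrrc32*, which holds latent TGFβ on cell surfaces, fell from 923 ± 429 to 248 ± 88.3 (-1.84, limma adjusted P-value 0.00749). *Htra1*, a secreted protease, fell from 522 ± 176 to 198 ± 67.3 (-1.40, 0.0119), and *Bmp1*, a protease that cuts LTBP1, from 1925 ± 302 to 1271 ± 154 (-0.59, 0.0168).

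Of the ligands, *Tgfb1* was lower, with 1733, 683, 685, 1017 and 545 in *Ctl* mice and 598, 315, 361, 285 and 434 in *Smad4del* mice (log2 fold change -1.15, limma adjusted P-value 0.0417). Only A5216 of the *Smad4del* mice exceeded the lowest *Ctl* mouse, and that call was lost in 7 of the 10 fits without 1 mouse. *Tgfb2* was at 1446 ± 178 and 1463 ± 264, with a log2 fold change of 0.01 (95% confidence interval -0.28 to 0.30), and *Tgfb3* at 1122 ± 194 and 1116 ± 282. *Itgb6* and *Itgb8*, epithelial integrin chains that activate TGFβ, had log2 fold changes of 0.20 and 0.29 and were not called. The other integrin chains of the list, *Itgav*, *Itgb1*, *Itgb3* and *Itgb5*, had -0.35, -0.31, -0.31 and -0.59 and were not called either.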

How the data were processed

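Reactive cholangiocytes sorted from the livers of 5 *Ctl* and 5 *Smad4del* mice on a 2-week diet with 0.1% DDC gave 1 sample each. Groups came from the sample titles. The labels also carry a cell line tag and a culture protocol, whereas the study's methods describe cells sorted from livers, as taken here. Libraries followed SMART-Seq v4 amplification, which does not mark strand. The deposited signal is the authors' normalized read count per gene: DESeq2 1.14.1 (R 3.3.2) scaled counts made by featureCounts (subread 1.5.0p3) on GENCODE M12, after Trimmomatic 0.36 and alignment to GRCm38.p5 by STAR 2.5.2b. The submitters' notes name mm9 as well. Counts were made from unique reads alone and with multi-mapping reads, and the sources do not say which set was deposited. The values carry no length correction.

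All values (100%) were whole multiples of the value of 1 read within a relative tolerance of 1e-06, which gave 16249719 to 21277339 reads on genes. In A5217 that value is 0.998, too near 1 for the recovery to be certain, and count tests were run with and without this mouse. The least covered member, *Fbln1*, had 80 reads in 1 mouse.

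Limma 3.58.1 (R 4.3.3) compared the cohorts on log2(normalized count + 1) over the 14870 genes with a mean of at least 10, out of 49568 listed and 22557 at 0 in all mice, with a trended prior and no covariate, at a Benjamini-Hochberg threshold of 0.05. P-values measure the spread between mice. Each member was tested by exact two-sided permutation too. Levels per kilobase used the exon union of GENCODE M21. Alternatives were pseudocounts of 0.5 and 10, no minimum mean and one of 50, sample weights, a robust prior, median scaling, quantile normalization, edgeR 4.0.16 and DESeq2 1.42.0 on recovered reads, covariates (mouse number block, *Xist*, fibroblast and stellate, endothelial and macrophage levels) and leaving out each mouse. The count tests without A5217 and the relations with marker levels were added after seeing the data. The fits were run on simulated data with the same dispersion for every gene and no mixture of cell types. That run does not show how they behave on genes that spread more widely between mice, such as *Fbln1*.

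The members and lists were chosen with earlier results of these data known. Named are all members, up to 6 called genes per direction of each partner list, and the most similar genes with a mean of at least 50. Further listed genes were named after their values were seen (*Eln*, *Plg*, *Tgfb2*, *Tgfb3*, *Itgav*, *Itgb1*, *Itgb3*, *Itgb5*, *Itgb6* and *Itgb8*). Promoter windows came from RefSeq on GRCm38.p6, which held all 10 members, and were cut to the 250 bases before the start. Protein sequences were not analysed here.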

Additional observations from a re-analysis of the deposited data

Results flagged for a closer look

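Among the 20 groups formed by the 10 genes and both cohorts, 1 held a mouse far from the others. For *Fbln2*, *Smad4del* mouse A5624 had a normalized count of 2552, and the nearest of the other 4 *Smad4del* mice had 1558, a gap of 0.762 of the range of that group. By chance about 1 group in 20 is marked in this way. Without A5624 *Fbln2* remained called lower, as it did in each of the 10 fits that left out 1 mouse (log2 fold change -2.18 to -1.92).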

How the results depend on the processing

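*Ltbp1*, *Ltbp2* and *Fbln2* were called lower in all 10 fits that left out 1 mouse. Over those fits 3 to 6 members were called lower, 3 of them without *Ctl* mouse A5221 and 3 without *Smad4del* mouse A5217, and 3 to 6 genes of each partner list. Over all genes, 4.69% were called lower with every mouse, 2.57% without A5221 and 2.21% without A5217. With the fibroblast and stellate level in the fit, 1 member, 0 microfibril partners and 0 storage and activation genes were called lower, and with the endothelial level 0, 0 and 0. These levels take up part of the difference between the cohorts by construction. With no minimum mean, limma called 4 members lower, beside 1.9% of all genes. edgeR with every mouse also called 4 members lower, beside 4.02% of all genes, and neither fit called *Fbn1* or *Fbln5*. edgeR on recovered reads without A5217 called 3 members and 2 storage and activation genes lower, and 1.78% of all genes. DESeq2 called 10 microfibril partners and 8 storage and activation genes, and 7 microfibril partners without A5217, where it called 8.68% of all genes lower, or 6.31% without A5217. The cause of these differences was not tested. The counts called higher were 0 in every alternative. With the endothelial level, 5 estimates turned sign, that of *Efemp1* (below) and those of other genes, to 0.065 for *Fbln5*, -0.10 for *Efemp2*, 0.10 for *Emilin1* and 0.10 for *Tgfb1*. *Efemp1*, at -0.02, turned to 0.021 under quantile normalization, 0.042 under median scaling, 0.060 with *Xist* and 0.070 with the endothelial level, and ranged from -0.12 to 0.065 without single mice, above 0 without A5221, A5628 or A5216. No paired analysis was possible because the cohorts share no replicate numbers, and a block of mouse number ranges kept 6 members called.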
